A study of Arabidopsis thaliana with 36 samples.

Results

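The genes described here are the 96 loci of Arabidopsis thaliana whose RNA was lower in the accession N14 than in the reference accession Col-0 in every condition of a cold priming experiment. For each gene, log2(mean CPM + 1) of N14 minus that of Col-0 was taken in each of the 6 conditions, where CPM is counts per 1000000 reads assigned to genes in the library, and the genes were ordered by the largest of their 6 differences. The 100 genes with the lowest value were kept, less a set of 5 named genes, of which 4 stood among the 100. The 96 members came from 33602 annotated genes, and all 96 were among the 20263 genes with enough counts to be tested. Because these differences chose the members, the gap between the accessions is described below and not tested.

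Poly(A) RNA from rosettes was sequenced from 12 groups of 3 libraries, 1 library for each of 3 independent experiments, and each library pooled 5 replicate samples. Col-0 and N14, wild-type accessions described by the submitters as intermediate and high in freezing tolerance, each went through the same 6 conditions, and no transgene or mutant was used. Groups C28 and C35 were grown without cold for 28 or 35 days, C28P3 and C35P3 were then held for 3 days at 4 °C, C28P3L7 was returned from its cold treatment to 20 °C by day for 7 days (the lag phase), and C28P3L7T3 was given a second 3 days at 4 °C after that lag. Light in the cold was 90 µE per square metre and second, against 200 during growth and at least that in the lag. A change with cold thus cannot be told apart from one with lower light or with the 3 days of added age. The libraries held 17861514 to 31046237 counted reads. Summed over the list, the 5 leaf markers lay between 33565 and 80292 CPM in all 36 libraries, and the 5 floral organ markers lay between 0.834 and 13 CPM in Col-0 and between 0.112 and 1.1 CPM in N14, with the part of that difference in the results not tested. In these bulk samples, fewer cells of a type and less RNA per cell cannot be told apart.

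All reads were placed on Col-0 sequence. Plants recognise pathogens inside the cell with NLR proteins, receptors built from a nucleotide-binding and a leucine-rich repeat part, often with a TIR domain at the front. NLR genes sit in clusters of near copies that gain, lose and exchange members, and they are among the most variable genes between Arabidopsis accessions. A gene can be low in N14 in such a count table because its transcript is rare or because its reads could not be placed on the Col-0 copy. The 7 count tables that the authors deposited, made with different aligners and counters, are set side by side further on. They hold the same libraries placed on the same Col-0 sequence, so their agreement is no replication. Where a gene is low in all of them, the 2 readings still cannot be told apart.

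In the STAR count table, from which the members were chosen, most of them had few reads in N14. The N14 mean was 0.214% to 20.3% of the Col-0 mean over the 18 libraries of each accession, with a median of 1.01%. It was under 1% for 48 members, from 1% to 2% for 15, from 2% to 5% for 12, from 5% to 10% for 7 and at least 10% for 14. The median over members of the mean difference was -3.36 on the log2(CPM + 1) scale, where the median over all genes tested was -0.00741. In 91 of the 96 members, all 18 N14 libraries lay below all 18 Col-0 libraries, as they did in 2.00% of the genes tested. The 5 whose libraries overlapped were AGP5, FAMT, SQP1, GLR2.7 and ATCG00220. At the limit of the rule, AT1G56520 and GLR2.7 stood just inside with largest differences of -2.04 and -2.03, and RPP7 (AT1G58602) and AT1G52347 stood just outside, both at -1.97. A difference of at least 2-fold in all 6 conditions was found in 1.38% of the genes tested.

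**Figure D1:**
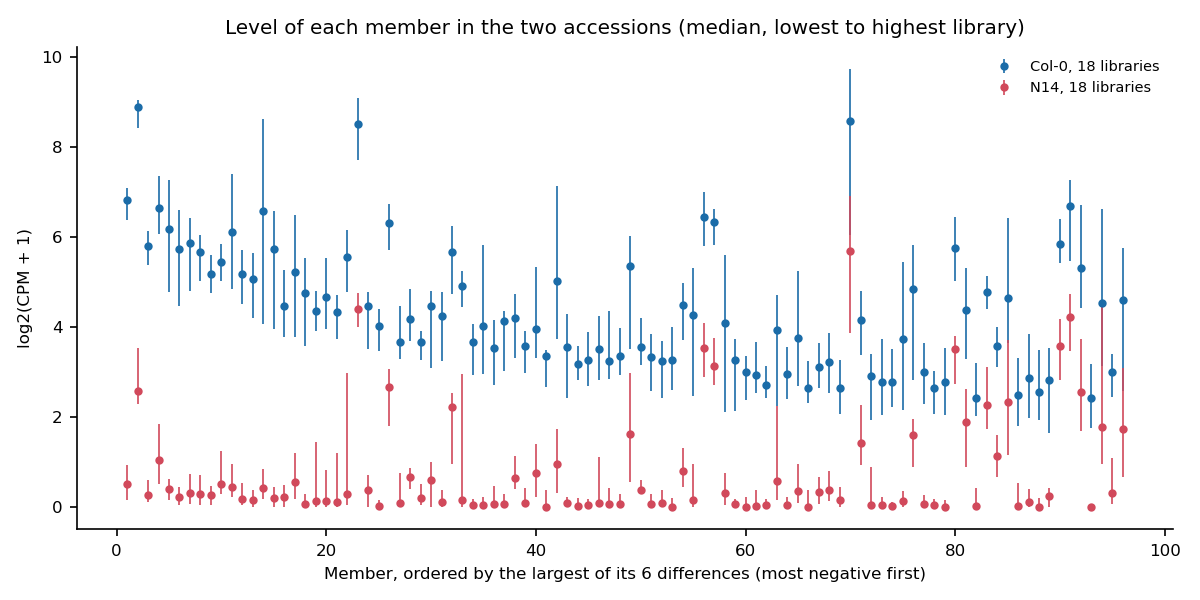
Level of each of the 96 members, as log2(CPM + 1), in the 18 Col-0 and the 18 N14 libraries, ordered along the x axis by the largest of the 6 differences. Points are medians and bars run from the lowest to the highest library; the bars of the 2 accessions stay apart in 91 members.

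The same contrast was read in libraries that took no part in choosing the genes of that round, though they are of the same 2 accessions and the same series. Lists were chosen anew by the rule from any 2 of the 3 experiments, as numbered in the labels, and their differences were taken in the experiment left out. Each list held 96 genes, of which 94, 92 and 91 were members with experiment 1, 2 and 3 left out. All 96 were lower in N14 in all 6 conditions of the left-out experiment in each of the 3 rounds, against 13.8%, 16.6% and 16% of the genes tested. A difference of at least 2-fold in all 6 conditions was found for 94, 96 and 96 of them, against 1.15%, 1.31% and 1.24% of the genes tested.

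By annotation words chosen with results known, 16 members were of the intracellular immune receptor type. This was 16.7% of the members and 0.642% of the genes tested. The shares of the classes are thus a description. The words took in HR4, annotated as a homologue of RPW8, and TIR, annotated as a toll/interleukin-1 receptor-like protein. The class therefore does not hold NLR genes alone. Pseudogenes made up 13 members (13.5%, against 0.79% of the genes tested; a further 0.706% are annotated as transcribed pseudogenes and held no member), noncoding RNAs 8 (8.33%, against 1.88%) and receptor-like kinases or receptor-like proteins at the cell surface 6 (6.25%, against 1.25%). A further 14 were uncharacterised proteins, 32 were other proteins, 2 each were F-box proteins, TRAF-like proteins and cytochromes P450, and ATCG00220 had no match in the RefSeq gene table. The N14 level as a share of Col-0 had its median at 0.663% in the pseudogenes, 0.545% in the noncoding RNAs, 0.505% in the uncharacterised proteins, 1.86% in the immune receptors and 2.7% in the surface receptors. Of the pseudogenes 12 of 13 were under 2%, of the immune receptors 8 of 16.

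**Figure D2:**
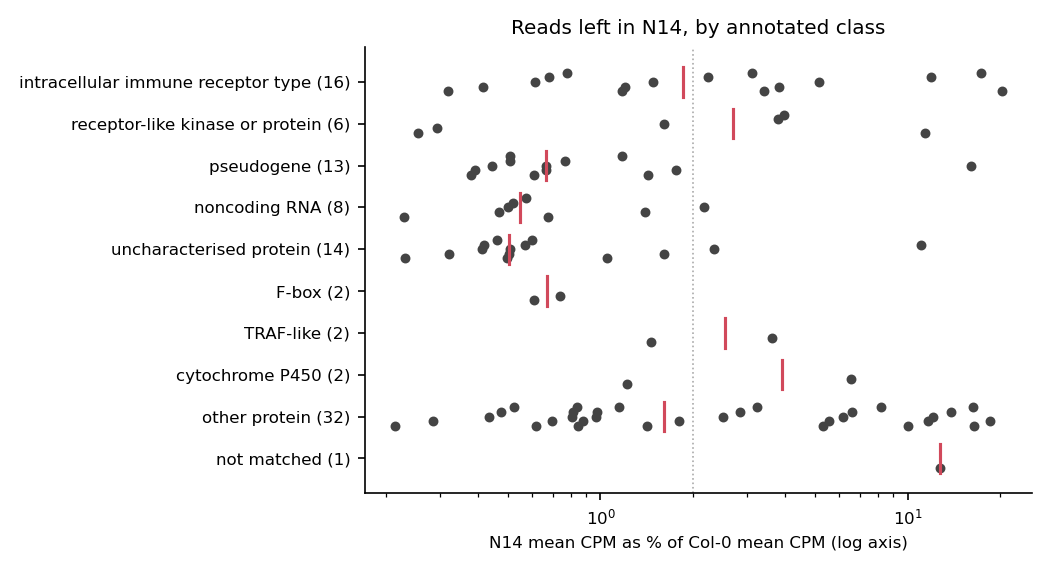
N14 mean CPM as a percentage of the Col-0 mean CPM on a log axis, 1 point per member, by annotated class with the number of members in brackets. Red bars are class medians and the dotted line marks 2%; 12 of 13 pseudogenes and 8 of 16 immune receptors lie to its left.

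RLM3 (AT4G16990), a TIR-NBS protein known for limiting fungal infection of leaves, had the lowest largest difference of all members, -6.18. Its 18 Col-0 libraries read 82.0 to 134.7 CPM with a median of 112.6, and its 18 N14 libraries read 0.124 to 0.901 CPM with a median of 0.428. In reads, N14 held 3 to 21 per library and Col-0 no fewer than 2209. TIR (AT1G72930), a short protein with a TIR domain only, read 66.6 to 162.4 CPM in Col-0 and 0.432 to 2.6 CPM in N14. Neither gene passed the threshold in any cold comparison, and the difference of RLM3 lay between -6.38 and -6.18 in the 6 conditions.

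The neighbouring genes CSA1 (AT5G17880) and DAR4 (AT5G17890), also called CHS3 and known from a chilling-sensitive mutant, encode an NLR pair. CSA1 read 5.57 to 16.7 CPM in Col-0 and 0 to 0.382 CPM in N14. DAR4 read 12.8 to 37.7 CPM in Col-0 and 0 to 0.401 CPM in N14. Both were thus near or at 0 in every N14 library. The genes on either side of the pair were less apart: PSRP6 had means of 392.5 CPM in Col-0 and 229.6 CPM in N14, and AT5G17900 had 18.4 and 7.67 CPM.

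ADR1 (AT1G33560), a helper NLR that works downstream of other receptors, read 2.85 to 9.62 CPM in Col-0. In N14 it read 0 to 0.106 CPM in 17 libraries and 0.858 CPM, 20 reads, in C35 experiment 1. WRR4 (AT1G56510), which confers resistance to white rust, read 8.88 to 39.5 CPM in Col-0 and 0.177 to 1.65 CPM in N14. Its neighbour AT1G56520 read 4.48 to 9.6 CPM in Col-0 and 0.0425 to 1.12 CPM in N14. HR4 (AT3G50480), a homologue of the powdery mildew resistance gene RPW8, read 12.3 to 139.5 CPM in Col-0 and 0.236 to 2.32 CPM in N14. For all 4 genes the libraries of the 2 accessions stayed apart.

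A list of 28 known NLR genes shows how the members stand among their kind; 27 of them were tested. Members of the list were RLM3, SNC1, RPP4, WRR4 and ADR1, 5 of the 27. Of the other 22, RPP1, RPP7 and LAZ5 were lower in N14 in all 6 conditions by edgeR's quasi-likelihood test at an adjusted p under 0.05, as were 2.82% of all genes tested, AT4G16960 was higher in all 6, as were 2.14%, and 9 were lower in some conditions and 9 in none. The median of the mean difference over these 22 was -0.291. ZAR1 and RPM1 were among the 9 called in none, ZAR1 with 59.3 ± 14.1 CPM in Col-0 and 58.4 ± 14.5 CPM in N14 and RPM1 with 5.31 ± 1.24 and 5.29 ± 1.57 CPM (SD, n = 18). ADR1-L2, a paralogue of ADR1, had 24.9 ± 8.88 CPM in Col-0 and 29.6 ± 15.4 CPM in N14. ADR1-L1, another paralogue, had 47.0 ± 10.2 CPM in Col-0 and 29.5 ± 9.9 CPM in N14 and was called lower in 2 conditions. Of 12 tested genes at polymorphic glucosinolate loci, GS-OH (AT2G25450), with 254.8 CPM in Col-0 and 1.15 CPM in N14, and ESM1 (AT3G14210), with 1170.9 and 84.2 CPM, stood among the 100 genes and were left out by the rule. TGG2 and FMO GS-OX2 of the same list were lower in N14 in all 6 conditions by edgeR without reaching the 100, and AOP2 and ESP were higher in all 6. Of 4 tested terpene or triterpene genes none was a member.

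Members also lay next to each other. Of the 95 placed in the annotated gene order, 25 had another member within 10 genes, in 11 runs, and 9 of the runs held 2 members. Of 103 tested genes directly beside a member that were not members themselves, 10 (9.71%) were at least 2-fold lower in N14 in all 6 conditions, against the 1.38% of all genes tested. The longest run held 4 members within 16 genes on chromosome 4, in the cluster of RPP4, SNC1 and RPP5, where related TIR-NLR genes lie together. RPP4 (AT4G16860), which recognises downy mildew, read 42.0 to 83.2 CPM in Col-0 and 6.03 to 17.2 CPM in N14. SNC1 (AT4G16890), known from a gain-of-function mutant with constant defence, read 55.1 to 126.3 CPM in Col-0 and 6.48 to 16.0 CPM in N14. AT4G16900 read 5.26 to 11.5 CPM in Col-0 and 0.0501 to 0.595 CPM in N14. AT4G16880, between RPP4 and SNC1 and no member, had means of 28.2 CPM in Col-0 and 1.98 CPM in N14. RLM3 closed the run. RPP4 and SNC1 thus kept 20.3% and 11.9% of their Col-0 level in N14, and the other 2 members of the run 3.4% and 0.414%.

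Other receptor genes of the same cluster went the other way. AT4G16920 had a mean of 1.55 CPM in Col-0 and 28.2 CPM in N14, AT4G16940 had 0.309 and 8.74 CPM, and AT4G16960 had 2.04 and 9.61 CPM. RPP5 (AT4G16950) differed less, with 80.9 CPM in Col-0 and 57.0 CPM in N14, and AT4G16980, which is no receptor, had 467.1 and 517 CPM. Reads can be split between these copies: the transcript of RPP4 was 89.8% identical to that of RPP5 over 94% of its length, and that of SNC1 88.3% over 92.3%. Summed over the 8 receptor genes from RPP4 to AT4G16960, Col-0 held 238.1 ± 43.7 CPM and N14 held 125.9 ± 26.4 CPM (SD, n = 18), or 52.9% of Col-0. The sum in the 7 count tables ran from 42.4% of Col-0 in the TopHat table to 72.2% in the CLC table. The 3 members RPP4, SNC1 and AT4G16900 fell from 153.3 CPM in Col-0 to 22.3 CPM in N14 and the other 5 genes went from 84.8 to 103.6 CPM in the STAR table. The 3 members were lower in N14 in all 7 tables, but the sum of the other 5 was higher in N14 only in the STAR, CLC (121.4 to 147.5 CPM) and RSEM (126.6 to 130.9 CPM) tables. It was lower in the BWA (123.3 to 104.5 CPM), Salmon (129.5 to 123.1 CPM), kallisto (131.4 to 130.7 CPM) and TopHat (86.8 to 85.9 CPM) tables.

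**Figure D3:**
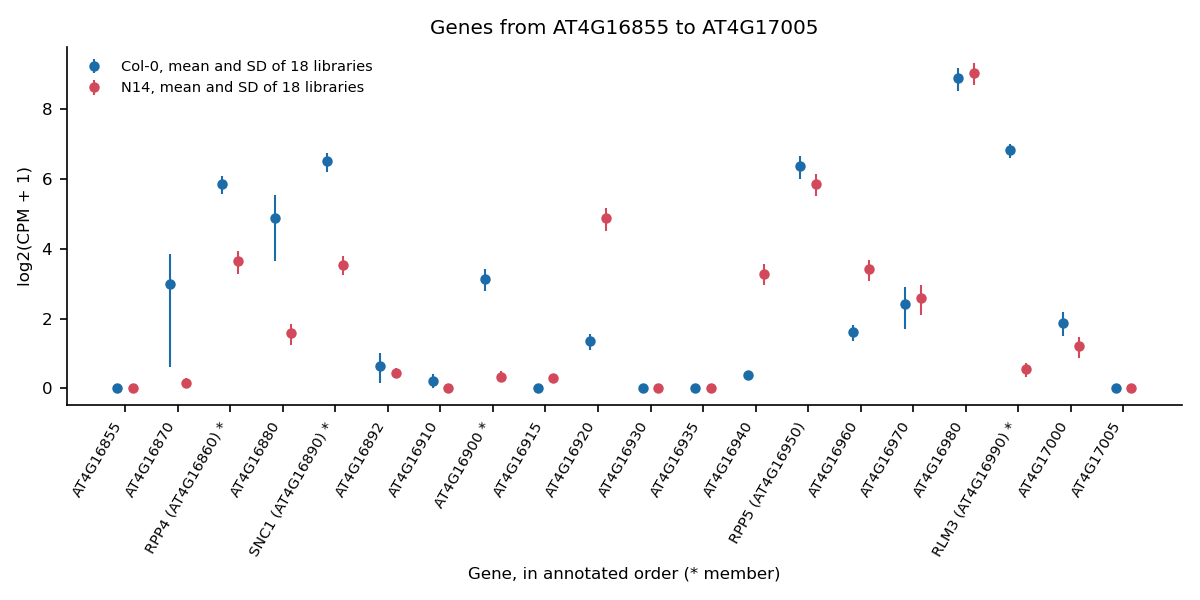
Mean and SD over 18 libraries of each accession, as log2(CPM + 1), for the genes of the run on chromosome 4 in annotated order, with members starred. RPP4, SNC1, AT4G16900 and RLM3 are lower in N14, while AT4G16920, AT4G16940 and AT4G16960 are higher.

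The second longest run was made of surface receptors, cysteine-rich receptor-like kinases that span the plasma membrane. CRK21 (AT4G23290) read 21.2 to 96.8 CPM in Col-0 and 0.0413 to 0.375 CPM in N14. CRK22 (AT4G23300) read 12.1 to 30.7 CPM in Col-0 and 0.355 to 1.5 CPM in N14, and CRK14 (AT4G23220) read 9.46 to 26.7 CPM in Col-0 and 0.908 to 3.85 CPM in N14. Between them lay kinases of the same family that differed less: EMB1290 had means of 16.6 CPM in Col-0 and 17.5 CPM in N14, CRK15 2.48 and 1.98 CPM, CRK19 16.5 and 7.01 CPM, and CRK18, the most apart of them, 11.6 and 3.43 CPM. The other runs were pairs, among them AT5G46490 and AT5G46510, 2 further TIR-NLR genes that flank AT5G46500 with 1.4 CPM in Col-0 and 1.18 CPM in N14.

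Away from the receptors, AT3G62530, an ARM repeat protein, read 342.8 to 527 CPM in Col-0 and 3.93 to 10.5 CPM in N14. AT1G23130, of a family of lipid-binding proteins, read 208.5 to 540.4 CPM in Col-0 and 15.0 to 26.0 CPM in N14. AT1G66100, a thionin, one of the small antimicrobial peptides of plants, read 15.8 to 393.2 CPM in Col-0 and 0.127 to 0.796 CPM in N14. All 3 were apart in every library, and AT1G23130 kept 393 to 639 reads per library in N14. ATCG00220 read 65.0 to 851.1 CPM in Col-0 and 13.7 to 118.6 CPM in N14, and its libraries overlapped. These are STAR values, and in the BWA and RSEM tables its Col-0 mean was under 1 CPM. Of the pseudogenes, AT2G06950 read 27.7 to 167.1 CPM in Col-0 and 0.174 to 0.937 CPM in N14.

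No member was at 0 in all 18 N14 libraries. Across the 18 libraries 10 members never exceeded 3 reads, 29 exceeded 3 reads in every library, and 57 did so in some. The few reads of the 63 members under 2% were also summed by library. Their summed level was 0.497% to 1.77% of that in the Col-0 libraries of the same condition, with a median of 0.694% over the 18 N14 libraries. It was highest in N14 C35 experiment 1 (1.77%), then in C28P3L7 experiment 2 (1.06%) and C28 experiment 1 (1.05%), and the first of these was the highest N14 library for 18 of the 96 members. Single members carried much of these sums: AT3G62530 held 10.5 of the 18.6 CPM in C28 experiment 1, and AT2G15292 and AT3G43740 held 6.95 and 6.82 of the 33.9 CPM in C35 experiment 1. In reverse, the 100 genes most clearly higher in N14 in all 6 conditions were taken, and 41 of them had a Col-0 mean under 2% of the N14 mean. For these 41 the Col-0 libraries held 0.78% to 2.27% of the N14 level. Without the 3 N14 libraries with the highest share, a choice made after seeing the data, 15 members in place of 10 stayed at or under 3 reads. Leaving libraries out can only keep or raise this count, so its direction was fixed. The source of these reads was not tested.

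The 7 count tables were compared for N14 reads that 1 method lost and another counted. A member was taken as measured in a table where its Col-0 mean was at least 1 CPM. Of the members measured, 96 of 96 were at least 2-fold lower in all 6 conditions in the STAR and TopHat tables, 94 of 95 in the RSEM table, 87 of 88 in the kallisto table, 85 of 87 in the Salmon table, 84 of 87 in the BWA table and 81 of 83 in the CLC table. The STAR count was fixed by the rule, since no member had a largest difference above -2.03 there. The BWA, kallisto and Salmon tables do not list 8 of the members. In all, 89 members were at least 2-fold lower in all 6 conditions in every table that measured them, and for 73 the least negative of the other tables lay within 0.5 of the STAR value on the log2 scale. The median of the mean difference ran from -3.41 in the TopHat table to -3.22 in the CLC table. RLM3, AT3G62530 and TIR were thus low in N14 by every method, all of which used Col-0 sequence.

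The 7 members that were not at least 2-fold lower in all 6 conditions in some table were AT3G42806, SDH3-2, HR4, AT1G57860, AT1G45163, RPP4 and AT3G42052. The pseudogene AT3G42806 had 20.9 CPM in Col-0 and 0.298 CPM in N14 in the STAR table, 22.4 and 20.2 CPM in the kallisto table and 19.6 and 19.1 CPM in the Salmon table. Its low level in N14 was therefore found by some methods only. HR4 had 49.7 and 1.11 CPM in the STAR table and 49.8 and 14.9 CPM in the CLC table, and the 5 other tables gave N14 means of 0.643 to 1.21 CPM. RPP4 had 56.9 and 26.4 CPM in the CLC table.

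**Figure D4:**
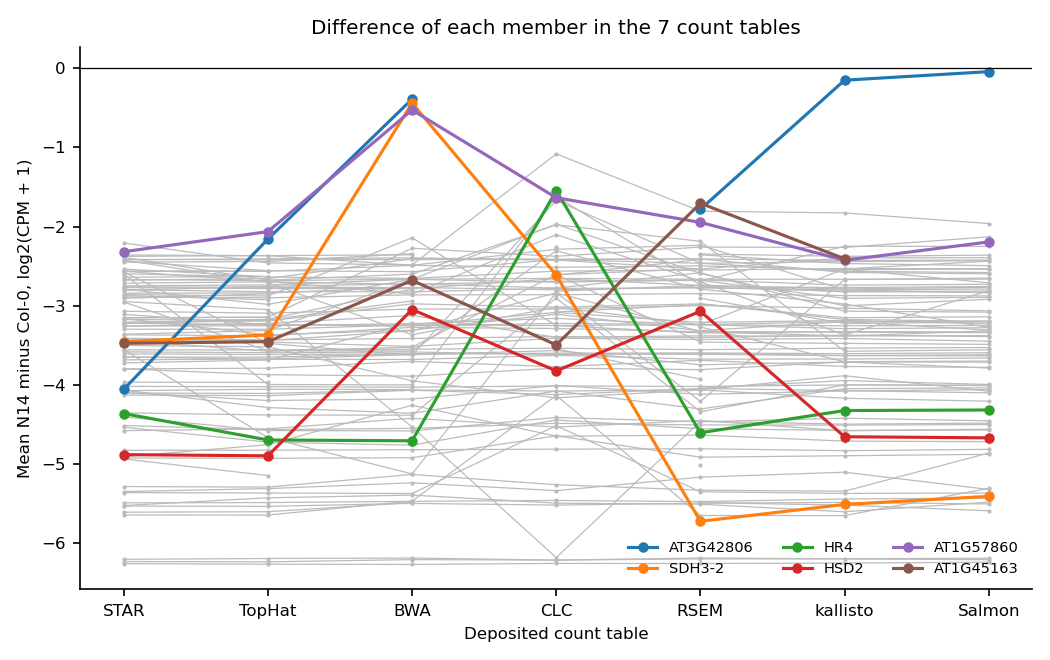
Mean over 6 conditions of N14 minus Col-0, on the log2(CPM + 1) scale, for each member in each of the 7 deposited count tables in which it was measured. The 6 coloured members are those for which another table lay furthest above the STAR value. AT3G42806 went from -4.06 in STAR to -0.04 in Salmon. Grey lines are all other members, some of which also differ between tables, as AT1G25211 with -2.95 in STAR and -6.18 in CLC.

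Copies elsewhere in the genome matter for a few of them. Of the members, 27 had another gene whose transcript was alike over at least 80% of the length, and 7 of these were at least 90% identical. SDH3-2 (AT4G32210), a subunit of succinate dehydrogenase in the mitochondrial respiratory chain, is 99.9% identical to SDH3-1 (AT5G09600). In the STAR table SDH3-2 had 11.8 CPM in Col-0 and 0.167 CPM in N14, while SDH3-1 had 10.4 and 21.6 CPM. The sum of both genes differed by -0.08 to 0.03 on the log2 scale in the 7 tables, and so the pair as a whole was level between the accessions. In the RSEM table, which shares out reads that match both copies, the difference of SDH3-2 was -5.72, and in the BWA table it was -0.44.

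AT1G57860, annotated as a translation protein, and its copy AT1G57660 (94.3% identical) gave sums that differed by -0.80 to 0.07 over the 7 tables, and AT1G57860 alone by -2.43 to -0.53. CYP89A5 (AT1G64950), a cytochrome P450, had 45.2 CPM in Col-0 and 0.551 CPM in N14, while AT2G12190 (94.4% identical) had 4.87 and 21.9 CPM. Their sum stayed lower in N14, with differences from -1.67 in the Salmon table to -1.001 in the RSEM table. The sums of HHP5 with HHP4 and of RLP42 with RLP40 were lower too, from -1.01 to -0.92 and from -2.59 to -2.13. The F-box gene AT1G25211 and its near copy AT1G24800 (99.8% identical) gave sums from -6.36 to -2.95. Thus the sum with the closest copy removed the difference for SDH3-2, and in 3 of the 7 tables brought that of AT1G57860 within 0.1, but not for these other 4.

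The cold changes within each accession were not used to choose the members and were tested with edgeR, with p-values adjusted over all 20263 genes. In Col-0, where the members are expressed, 42 of 96 changed after the first cold at 28 days, which is 43.8% against 54.7% of all genes tested; 17 were higher (26.6% of all genes) and 25 lower (28.0% of all genes). At 35 days 35 changed, against 51.8% of all genes, 16 higher (26.7% of all genes) and 19 lower (25.2%). After the second cold 27 changed, against 40.2%, 13 higher (21.5% of all genes) and 14 lower (18.7%). Members higher in all 3 comparisons numbered 9, or 9.38%, against 17.3% of all genes, and those lower in all 3 numbered 14, or 14.6%, against 15.6%. No call in any of the 3 was made for 48 members in Col-0, against 34.8% of all genes, and for 58 in N14, against 31.9%. In Col-0 the members' shares thus lay under those of all genes or, for the 14, close to them.

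The largest rise of a member in Col-0 after the first cold, at 28 and at 35 days, was that of GLR2.7 (AT2G29120), a glutamate receptor-like channel. It read 5.01, 6.06 and 8.84 CPM in the 3 C28 libraries and 36.2, 47.2 and 44.8 CPM in C28P3, a log2 fold change of 2.51 ± 0.34 (SE, n = 3 per group; edgeR adjusted p = 5.75e-07). N14 rose as well, from 1.29, 0.737 and 0.602 CPM to 7.49, 2.89 and 3.71 CPM, by 2.12 ± 0.40 (SE; edgeR adjusted p = 5.85e-05). The cold libraries lay above the libraries before cold in both accessions. At 35 days the changes were 1.92 ± 0.33 in Col-0 and 2.56 ± 0.40 in N14, and after the second cold 1.40 ± 0.32 and 0.88 ± 0.37, the last not past the threshold (edgeR adjusted p = 0.0541). After the second cold 3 members had larger rises in Col-0, within their errors of that of GLR2.7: the TRAF-like gene ZW9 (1.51 ± 0.31), AT5G28919 (1.51 ± 0.21) and AT2G06950 (1.44 ± 0.24).

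CNGC11 (AT2G46440), a cyclic nucleotide-gated ion channel linked to defence, rose in Col-0 from 6.09, 15.1 and 9.56 CPM in C28 to 34.7, 45.9 and 43.0 CPM in C28P3, a log2 fold change of 1.82 ± 0.32 (SE; edgeR adjusted p = 3.18e-05). It rose again at 35 days by 1.12 ± 0.31 and after the second cold by 1.25 ± 0.32. In N14 it read 0.843, 2.09 and 1.12 CPM in C28 and 2.86, 0.99 and 2.66 CPM in C28P3, with overlap, and its changes of 0.41 ± 0.39, 0.14 ± 0.38 and -0.62 ± 0.39 did not pass the threshold (edgeR adjusted p of 0.384, 0.775 and 0.193). The difference between the accessions in this response was not tested.

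CRK21 was the 1 surface receptor of 6 that was higher in all 3 Col-0 comparisons, by 0.87 ± 0.27, 1.29 ± 0.27 and 1.18 ± 0.27. The first of these lost its call without Col-0 C28P3 experiment 3 or C28 experiment 2 (edgeR adjusted p of 0.0586 and 0.0525). AT5G45840, a leucine-rich repeat kinase, was lower in all 3, by -1.22 ± 0.27, -1.08 ± 0.27 and -1.29 ± 0.27. The pseudogene AT2G06950 read 44.0, 34.3 and 38.2 CPM in Col-0 C28 and 167.1, 165.9 and 144 CPM in C28P3, a log2 fold change of 1.86 ± 0.24 (SE; edgeR adjusted p = 3.46e-07). The uncharacterised AT5G28919 rose by 1.60 ± 0.21 (SE; edgeR adjusted p = 2.91e-07).

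The largest fall of a member in Col-0 after the first cold, at 28 and at 35 days, was that of the pseudogene AT1G35612, which at 28 days went from 30.6, 25.8 and 25.9 CPM in C28 to 5.21, 4.25 and 3.43 CPM in C28P3, a log2 fold change of -2.85 ± 0.38 (SE; edgeR adjusted p = 5.37e-07). After the second cold it fell by -1.51 ± 0.36, and the largest fall was that of the uncharacterised AT5G01015, by -2.17 ± 0.34 (SE; edgeR adjusted p = 1.2e-05). HB16 (AT4G40060), a homeodomain leucine zipper transcription factor, went from 53.4, 50.3 and 47.4 CPM to 18.9, 11.2 and 10.3 CPM in Col-0, by -2.10 ± 0.27 (SE; edgeR adjusted p = 3.36e-07). In N14 it went from 3.77, 5.78 and 4.86 CPM to 1.08, 0.867 and 0.824 CPM, by -2.65 ± 0.33 (SE; edgeR adjusted p = 1.38e-07). HB16 fell in all 3 comparisons in both accessions: after the second cold by -1.06 ± 0.26 in Col-0 and by -2.39 ± 0.33 in N14. The thionin AT1G66100 fell in Col-0 by -2.31 ± 0.42, -1.74 ± 0.41 and -1.38 ± 0.41; without Col-0 C28P3L7 experiment 3 the last was -0.84 (edgeR adjusted p = 0.117), and without C28P3L7T3 experiment 1 it was -1.08 (edgeR adjusted p = 0.0609).

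Of the 16 immune receptors in Col-0, 4 rose and 1 fell after the first cold at 28 days, where 26.6% of all genes rose and 28.0% fell. At 35 days 3 rose and 1 fell, against 26.7% and 25.2% of all genes, and after the second cold none rose and 1 fell, against 21.5% and 18.7%. The share that rose at 28 days was thus near that of all genes. The gene that fell each time was HR4, which is in the class as a homologue of RPW8 and not as an annotated NLR. It fell by -1.79 ± 0.51, -1.97 ± 0.51 and -1.60 ± 0.50. But its C28 libraries read 18.9, 111.9 and 25.5 CPM, and without the second of these the change at 28 days was -0.48 (edgeR adjusted p = 0.37). Without C28P3L7T3 experiment 3 its change after the second cold was -1.33 (edgeR adjusted p = 0.0664). WRR4 rose from 11.1, 13.7 and 13.6 CPM in C28 to 15.9, 39.5 and 29.5 CPM in C28P3, by 0.98 ± 0.35 (SE; edgeR adjusted p = 0.0195), a call lost without Col-0 C28P3 experiment 2 (0.66, edgeR adjusted p = 0.15), C28P3 experiment 3 (edgeR adjusted p = 0.0544) or C28 experiment 1 (edgeR adjusted p = 0.0799). AT1G61190 rose by 0.53 ± 0.17 and AT5G46510 by 0.92 ± 0.29 at 28 days. At 35 days WRR4, AT1G61190 and AT5G46510 each lost the call in some fits without 1 Col-0 library. For WRR4 these were C35P3 experiment 1 or 3 or C35 experiment 2 (edgeR adjusted p of 0.0712 to 0.11). For AT1G61190 they were C35P3 experiment 3 or C35 experiment 1 or 2 (edgeR adjusted p of 0.051 to 0.136). For AT5G46510 they were C35P3 experiment 1 or C35 experiment 2 (edgeR adjusted p of 0.0727 and 0.127). DAR4 rose by 0.80 ± 0.30 at 28 days (edgeR adjusted p = 0.0272), a call lost when C28 experiment 1 or 2 or C28P3 experiment 2 or 3 was left out (edgeR adjusted p of 0.0591 to 0.0732). In N14 none of the 16 rose, and 2 were called lower on few reads: ADR1 at 35 days and CSA1 after the second cold, by -2.13 ± 0.78 (SE; edgeR adjusted p = 0.0261). The call of CSA1 was lost when C28P3L7 experiment 2 or 3 or C28P3L7T3 experiment 1 or 2 was left out (edgeR adjusted p of 0.0596 to 0.36) and in the kallisto table (edgeR adjusted p = 0.143), and the change without C28P3L7 experiment 2 was -1.16. RPP4, SNC1, RLM3 and TIR passed the threshold in no cold comparison of either accession.

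In N14, 14 members changed after the first cold at 28 days, against 56.7% of all genes tested, 6 higher (27.6% of all genes) and 8 lower (29.2%). At 35 days 21 changed, against 54.0%, 6 higher (25.0% of all genes) and 15 lower (29.0%). After the second cold 21 changed, against 46.6%, 3 higher (22.4% of all genes) and 18 lower (24.2%). Only 22 members had an N14 mean of at least 1 CPM. Of these, 3 rose and 6 fell at 28 days, 4 rose and 6 fell at 35 days, and 3 rose and 4 fell after the second cold. The rest of the calls came from members read a few times per library, 14 of them lower after the second cold and none higher. Beside them stands the share of the 63 members' reads: in N14 C28P3L7 it was 0.648%, 1.06% and 0.785% of Col-0, and in C28P3L7T3 0.573%, 0.685% and 0.497%. Without N14 C35 experiment 1, the library with 1.77%, 11 members in place of 21 were called at 35 days, and the change of ADR1 went from -3.03 (edgeR adjusted p = 0.0172) to 0.48 (edgeR adjusted p = 0.82). Without N14 C28 experiment 1, 9 in place of 14 were called at 28 days, and without N14 C28P3L7 experiment 3, 13 in place of 21 after the second cold. The part of these few reads in the calls was not tested.

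Among the members with at least 1 CPM in N14, SQP1 (AT5G24150), a squalene epoxidase-like enzyme, read 6.17, 6.05 and 13.2 CPM in N14 C28 and 0.953, 1.57 and 2.1 CPM in C28P3, a log2 fold change of -2.71 ± 0.76 (SE; edgeR adjusted p = 0.00355). It fell in N14 at 35 days by -2.97 ± 0.77 and after the second cold by -2.78 ± 0.76; without N14 C35 experiment 3 the change at 35 days was -1.76 (edgeR adjusted p = 0.0561). In Col-0 it fell at 28 days by -1.71 ± 0.67 (SE; edgeR adjusted p = 0.032), a call lost when C28 experiment 1 or 3 or C28P3 experiment 1 or 2 was left out (edgeR adjusted p of 0.0861 to 0.12), while the changes of -1.35 ± 0.66 at 35 days and -1.49 ± 0.66 after the second cold did not pass the threshold (edgeR adjusted p of 0.0881 and 0.0725). AT1G57860 rose in N14 by 0.58 ± 0.18, 0.51 ± 0.18 and 0.56 ± 0.18, and in Col-0 by 0.87 ± 0.17, 0.95 ± 0.17 and 0.91 ± 0.17. Its N14 change at 35 days lost its call without C35P3 experiment 3 or C35 experiment 2 (edgeR adjusted p of 0.0641 and 0.0906). It was the single member higher in all 3 N14 comparisons, against 18.5% of all genes; 4 members were lower in all 3, against 19.5%. The pseudogene AT5G55896 fell in N14 by -1.43 ± 0.23, -0.82 ± 0.22 and -0.83 ± 0.22 and passed the threshold in no Col-0 comparison.

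**Figure D5:**
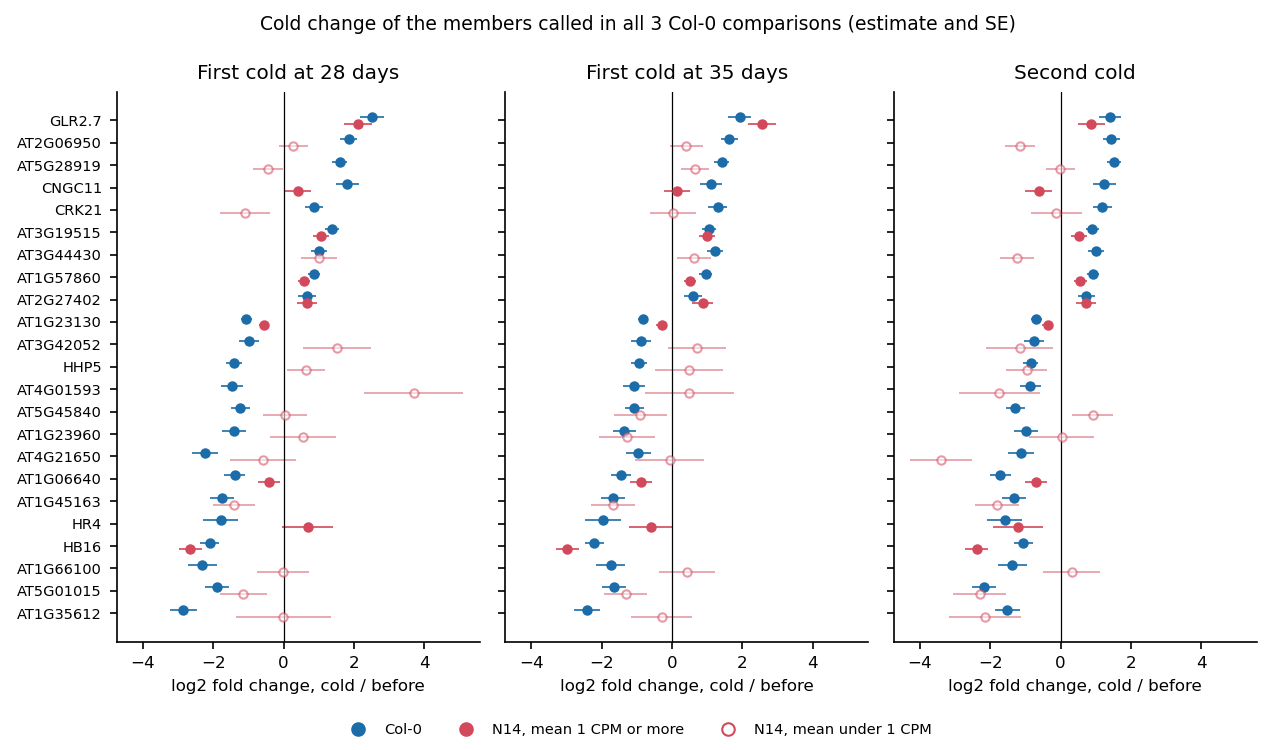
Log2 fold change after cold, with its SE, of the 9 members higher and the 14 lower in all 3 cold comparisons of Col-0, for Col-0 (blue) and N14 (red), 1 panel per comparison. Open red points are members with an N14 mean under 1 CPM, whose bars are wide; GLR2.7 rose and HB16 fell in both accessions at 28 and 35 days.

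To see whether a change outlasted the cold, plants after the 7 days of lag were compared with plants of 35 days that had seen no cold. The lag plants had 28 days of growth, 3 days of cold and 7 days of lag, so their age differed too. No member was called in either accession by edgeR, and none of all genes tested was (0.00% in both); at an unadjusted p under 0.05 there were 2 members in Col-0 and 18 in N14, and 669 and 918 of all genes. DESeq2 called none of the members in Col-0 and 2 in N14. The share of all genes that DESeq2 called was not taken, so these 2 have no background beside them. GLR2.7 read 14.9, 7.15 and 15.7 CPM in Col-0 C28P3L7, beside 8.21, 7.76 and 15.9 CPM in C35, and HB16 read 47.3, 55.7 and 58.1 CPM beside 54.2, 64.3 and 49.3 CPM. The lag and control libraries of these 2 genes overlapped.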

How the data were processed

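RNA-seq of 36 libraries was deposited as 7 tables. Per the submitters' processing notes, the tools named were BWA 0.7.13, TopHat2 2.1.1 and STAR 2.5.2a, HTSeq 0.7.2, Salmon 0.6.0, RSEM 1.2.30 and kallisto 0.42.5, with SAMtools 1.3, and the build was TAIR10; roles and strand settings are not given in the sources used here, and overlapping or antisense genes may share reads. The deposited STAR, TopHat, BWA and CLC values are raw counts, and those of RSEM, kallisto and Salmon estimated counts, rounded before testing. A repeated block in the BWA table was dropped. CPM was taken by column sum. For tests, edgeR 4.0.16 was run on STAR counts (quasi-likelihood, filterByExpr, TMM, 12 group means over 36 libraries, Benjamini-Hochberg, adjusted p under 0.05), after a check on simulated data; DESeq2 1.42.0 was an alternative. Log2 CPM differences used a pseudocount of 1 and understate changes of low genes.

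The members, the lists and the words that define the annotated classes were chosen with earlier results of these data known. Named members are those with the 12 lowest largest differences, the 6 highest Col-0 levels and the strongest cold changes called in all 3 comparisons. So are those in the 4 longest runs, and the 6 for which another table lay furthest above the STAR value. Also named are those with the 6 closest copies or the 3 highest N14 levels, listed genes and those at the rule's limit. PSRP6, AT5G17900, further receptors and the neighbours in runs were named after their values were seen. Copies were found by blastn 2.17.0 between transcripts, not proteins as planned. Annotation and gene order come from RefSeq on TAIR10.1, another build label than that of the files, so no coordinates or sequences are given. Libraries come from 3 independent experiments and are named here by the replicate number in the labels, which do not state that a number is the same experiment in every group; p-values measure the spread between these libraries. CPM does not correct for gene length.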

Additional observations from a re-analysis of the deposited data

How the results depend on the processing

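The counts of members called were within 1.5 times of the main value in all cold comparisons. This held under DESeq2, DESeq2-type size factors, no filter on low counts and the kallisto table. The exception was the lag phase in N14, where DESeq2 called 2 members against 0, with no share of all genes taken. With a replicate block the 6 cold counts were 44, 36 and 28 in Col-0 and 14, 21 and 24 in N14; deviations of same-numbered libraries correlated by -0.356 to 0.371 over 24 pairs (14 of them over 0.1), and all 3 pairs were over 0.1 in 1 of 8 comparisons, the first cold at 35 days in Col-0, so the numbers were not taken as pairs elsewhere. In that comparison the block gave 36 members against 35, and of the named members AT2G27402 lost its call (edgeR adjusted p = 0.0509). Leaving out 1 library at a time gave 29 to 38 members called in Col-0 and 9 to 14 in N14 at 28 days, 24 to 32 and 11 to 25 at 35 days, 20 to 26 and 13 to 20 after the second cold, and 0 and 0 to 3 in the lag phase. Leaving out 1 experiment in all groups gave 91 to 94 members found again, 13 to 14 at or under 3 reads, 96 at least 2-fold lower and a median difference of -3.38 to -3.35. The count at or under 3 reads was over the fewer libraries kept, so it could not fall. The rule applied to the other tables found 61 (BWA), 71 (Salmon), 74 (CLC), 74 (kallisto), 76 (RSEM) and 82 (TopHat) of the 96 members again, and with a pseudocount of 0.5 or 5 it found 84 or 71. Members at or under 3 reads in all N14 libraries numbered 4 of the 83 measured in the CLC table, against 10 of 96 in the STAR table. The median difference was -3.22 in the CLC, -3.32 in the RSEM and -3.41 in the TopHat table against -3.36, moves larger than the spread between experiments. These 3 medians were over the 83, 95 and 96 members measured there, so the CLC and RSEM ones cover fewer members. Of 1254 repeats of the cold changes of named members, 1120 kept their call, 133 lost it and 1 reversed (ADR1 in N14 at 35 days, whose change ran from -3.66 to 0.48 when 1 library was left out). Depth limits the N14 side most: with 0 to 3 reads in many libraries, a change there was often not detectable. The causes of these moves were not tested.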
